A study of Mus musculus with 8 samples.

Results

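The genes described here are 7 osteocyte markers that do not belong to the SIBLING family of acidic bone matrix proteins: Pdpn, Phex, Sost, Fgf23, Ackr3, Ptprz1 and Cd44. They were taken by name from the 48490 genes of the deposited expression table, and all 7 were found there. That choice was made with earlier results of these data known. RNA came from the descendants of hypertrophic chondrocytes, which the labels also call chondrocytes, in the proximal tibia of mice at postnatal day 5. In each of 8 libraries, 70 cells carrying the red reporter tdTomato were picked by hand, pooled and amplified with Smart-seq2, a full-length cDNA method for very small inputs. All 8 libraries carried Col10a1Cre and Rosa26-Tdtomato, so the controls hold the recombinase and the reporter as well. The loss-of-function group (LoF, 4 libraries) was Ctnnb1Δ/Δ, the gain-of-function group (GoF, 2 libraries) was Ctnnb1-exon3 Δ/+, and the wild-type group (WT, 2 libraries) had no Ctnnb1 change. Ctnnb1 encodes β-catenin, the transcriptional effector of canonical Wnt signalling, and deletion of exon 3 removes the residues that mark the protein for degradation. Col10a1Cre is driven by a gene of hypertrophic chondrocytes, so the red reporter marks a cell's history and not its present type. The labels do not say how many mice a pool came from, nor whether the libraries of a group came from separate mice or litters, so p-values below measure only the spread between these libraries.

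Osteocytes are the cells left inside bone matrix when osteoblasts become embedded. As they mature they lose osteoblast genes, grow dendrites and, late, secrete hormones and Wnt inhibitors. Podoplanin (Pdpn) appears early, as dendrites form, and PHEX is a membrane peptidase of osteoblasts and osteocytes. Sclerostin (Sost), which blocks Wnt co-receptors, and the phosphate-lowering hormone FGF23 are made mainly by mature osteocytes. ACKR3 is a receptor that removes the chemokine CXCL12, PTPRZ1 is a receptor phosphatase for pleiotrophin, and CD44 is the receptor for hyaluronan and osteopontin. CD44 is made by many other cell types too.

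The study changes β-catenin, which acts on DNA through TCF/LEF factors, so the starts of these genes were searched for motifs. Printed are the 4 genes that were called higher in GoF below, and Fgf23. Of the 7, only Fgf23 matched the TCF/LEF core searched for, CTTTGA. Each line gives the 120 bases before the gene's start, 5′ to 3′ on the gene's strand, from RefSeq with the assembly GRCm38.p6. Capitals mark a match. The 250 bases before the start were searched on both strands for CTTTGA, a TCF/LEF core, and for ACCACA, a RUNX core, whose reverse complements are TCAAAG and TGTGGT.
Pdpn, chr4:143299565-143299684, minus strand: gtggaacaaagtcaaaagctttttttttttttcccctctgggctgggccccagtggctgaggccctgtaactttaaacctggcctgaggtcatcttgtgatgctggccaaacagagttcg
Phex, chrX:157415287-157415406, minus strand: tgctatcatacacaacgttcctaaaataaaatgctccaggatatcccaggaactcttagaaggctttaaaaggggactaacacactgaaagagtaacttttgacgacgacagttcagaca
Ackr3, chr1:90203860-90203979, plus strand: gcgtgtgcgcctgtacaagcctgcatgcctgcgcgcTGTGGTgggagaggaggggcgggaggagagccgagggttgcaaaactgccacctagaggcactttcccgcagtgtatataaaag
Ptprz1, chr6:22875382-22875501, plus strand: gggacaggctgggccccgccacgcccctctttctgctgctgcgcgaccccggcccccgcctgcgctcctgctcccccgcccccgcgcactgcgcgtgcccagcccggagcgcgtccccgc
Fgf23, chr6:127072782-127072901, plus strand: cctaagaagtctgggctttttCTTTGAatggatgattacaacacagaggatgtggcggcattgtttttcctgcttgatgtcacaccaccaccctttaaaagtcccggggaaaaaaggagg
The Fgf23 match lies 99 bases before the start and the Ackr3 match, on the reverse strand, 84 bases before it. Pdpn, Phex, Sost, Ptprz1 and Cd44 held neither exact motif in this window, and other forms of the TCF/LEF core were not searched for. Of 32851 RefSeq promoters, 13.8% held the first motif and 14.0% the second. The windows differ in base composition: that of Ptprz1 is 71.6% G and C with 22 CpG dinucleotides, that of Phex 39.2% with 4, and that of Pdpn 43.2% with 2, beside medians of 52.4% and 6 over all promoters. These matches describe letters and were not set against binding, which was not measured.

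Levels are given as FPKM, fragments scaled to transcript length and to the mapped fragments of the library. This scaling allows an approximate comparison between genes and between libraries, and differences in RNA composition between libraries remain. Tests were run with limma on log2(FPKM + 1), and differences on that scale understate the change of low genes. A gene was tested if its FPKM reached 1 in at least 2 of 8 libraries, which held for 12888 genes, and counted as changed where its p, adjusted over all of them by Benjamini-Hochberg, was under 0.05. Of the 7 markers, 5 were tested and 2, Sost and Fgf23, were listed at 0 everywhere. Pdpn, Phex, Ackr3 and Ptprz1 were higher in GoF than in LoF, and Cd44 did not pass. That is 4 of 7 markers, where 5.97% of all tested genes were called higher in GoF. Against WT, Pdpn and Ackr3 passed (2 of 7), where 1.41% of tested genes did. Between LoF and WT, 0 of the 5 tested markers passed in limma, 1 of them (Phex, lower in LoF) had an unadjusted p under 0.05, and 0.566% of tested genes were called higher and 0.667% lower in LoF. The median difference of the 5 tested markers was 3.22 for GoF over LoF, beside -0.17 over all tested genes. For GoF over WT it was 2.56 beside -0.08, and for LoF over WT it was -0.30 beside 0.06. The GoF comparisons share their GoF libraries, so they are not separate evidence. As the markers were chosen with earlier results of these data known, these shares and medians describe them and are not a test.

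**Figure D1:**
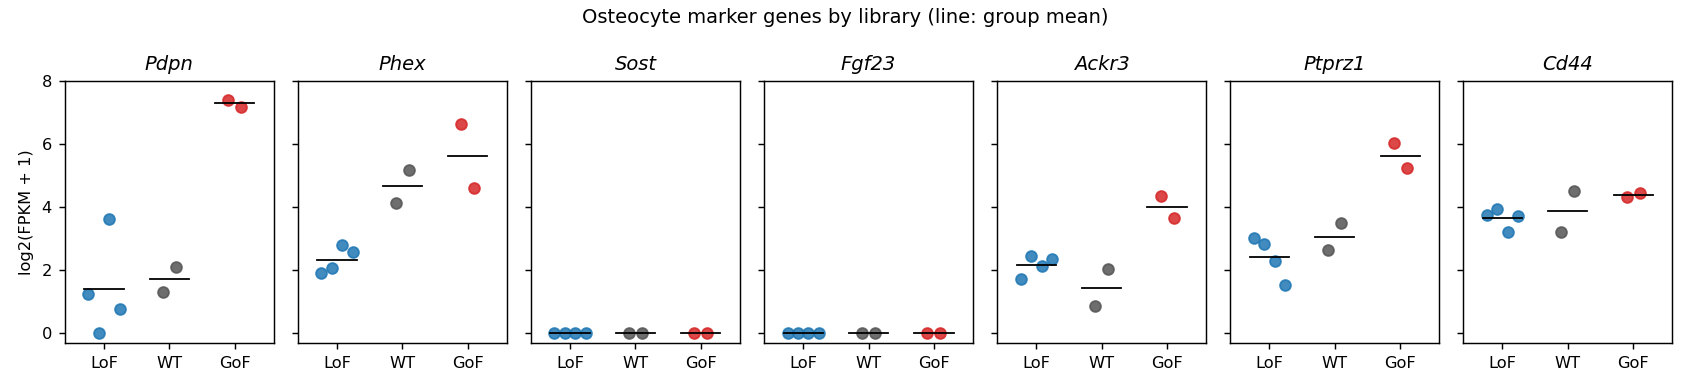
Level of each of the 7 markers, as log2(FPKM + 1) on the vertical axis, in each library of LoF (4 points), GoF (2) and WT (2); the horizontal line is the group mean. The GoF points of Pdpn (145 and 167 FPKM), Ackr3 (11.5 and 19.7) and Ptprz1 (37.0 and 64.2) lie above every other library, those of Phex and Cd44 overlap WT, and Sost and Fgf23 are at 0 in all libraries.

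The libraries themselves were similar in depth. Between 12587 and 13944 genes were above 0, FPKM summed to between 293194 and 382101, and relative depth spanned 1.29-fold. Read counts are unknown. Ctnnb1 was at 75.0 ± 7.17 FPKM (SD, n = 4) in LoF, 79.3 ± 10.3 (n = 2) in GoF and 142 ± 5.98 (n = 2) in WT. Xist was present in LoF libraries 1 and 4 and in both WT libraries, and Y-linked transcripts in LoF libraries 2 and 3 and in both GoF libraries. Between GoF and WT, sex and genotype therefore cannot be told apart without the LoF libraries. Markers of the osteoblast (Col1a1, Col1a2, Bglap, Sp7, Runx2, Alpl, Ifitm5) had a lower sum in LoF than in GoF and WT, which overlapped. Their summed FPKM was 812 to 2097 in LoF, 10547 to 13572 in GoF and 10126 to 12439 in WT. Of the 7, 6 were called higher in GoF than in LoF, 0 in GoF against WT and 3 lower in LoF than in WT. In pools of this kind, fewer cells of a type and less RNA per cell cannot be told apart.

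Pdpn had the highest level of the 7 genes in both GoF libraries. It encodes podoplanin, a mucin-type membrane glycoprotein that binds ezrin and moesin and is needed for osteocyte dendrites to grow. The gene (ENSMUSG00000028583.14) spans 143267431 to 143299564 on the minus strand of chromosome 4, in mm10. Its FPKM was 167 and 145 in GoF libraries 1 and 2, and 1.50 and 3.35 in WT. In LoF libraries 1 to 4 it was 1.39, 0, 11.4 and 0.708. Both GoF libraries stood far above the rest, the lower one 12.7-fold above the highest LoF library and 43.3-fold above the highest WT library. Among genes above 0, Pdpn ranked at percentiles 97.6 and 97.0 of the GoF libraries and 27.3 and 47.4 of the WT libraries.

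The Pdpn means were 156 ± 15.6 FPKM (SD, n = 2) in GoF, 3.37 ± 5.37 (n = 4) in LoF and 2.42 ± 1.31 (n = 2) in WT. GoF was 46.3-fold higher than LoF, a log2 difference of 5.88 (SE 0.83, limma adjusted p = 0.0019). Without LoF replicate 3, the highest of its group, the fold was 223 and the log2 difference 6.62 (limma adjusted p = 0.000253). Against WT it was 64.5-fold higher, a log2 difference of 5.57 (SE 0.96, limma adjusted p = 0.0165). LoF and WT overlapped, with a log2 difference of -0.30 (95% interval -2.16 to 1.55, limma adjusted p = 0.922). The sign of that last value turned to 0.17 without LoF replicate 2 and to 0.10 without WT replicate 2. In GoF against LoF, Pdpn no longer passed without GoF replicate 1 (limma adjusted p = 0.0705) or GoF replicate 2 (0.0599), where a lone GoF library is assumed to vary like the other groups. In GoF against WT the Pdpn call was lost in 9 of 17 other settings. They included a pseudocount of 0.1 (limma adjusted p = 0.132), no filter on low values (0.0564) and sex as a covariate (0.266). A fit of only the groups compared (0.109) and a replicate block (0.0539) also lost it. So did leaving out GoF replicate 1, GoF replicate 2, WT replicate 1 or WT replicate 2, with log2 differences of 5.47, 5.67, 5.17 and 5.97.

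The LoF library with 11.4 FPKM of Pdpn, library 3, also had the highest endothelial signal of the series. The endothelial markers Pecam1, Cdh5, Kdr, Tek, Emcn, Lyve1 and Prox1 summed to 57.0 FPKM in it, of which Emcn gave 38.5, and to between 0.564 and 6.83 in the other LoF libraries. In GoF the sum was 0.541 to 1.19 and in WT 0.249 to 0.334. Lyve1 and Prox1, which mark the lymphatic endothelium that makes podoplanin, were listed at 0 in all 8 libraries. The summed leukocyte markers, listed with Cd44 below, were also highest in LoF library 3. They reached 82.4 FPKM there and 29.2 to 44.2 in the other LoF libraries. What share of the Pdpn signal in LoF library 3 came with the other endothelial or the leukocyte markers was not tested.

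None of the podoplanin partners tested was called higher in GoF. Of 7 partner genes 6 were tested, and against LoF 1 of them, the tetraspanin Cd9, fell by 1.02 on the log2 scale (SE 0.28, limma adjusted p = 0.0442), where 5.68% of all tested genes were called lower. That call was lost in 14 of 17 other settings, with adjusted p up to 0.352 without GoF replicate 1. Ezr, for ezrin, was at 1.55 and 1.91 FPKM in GoF and 4.65 to 8.55 in LoF, a log2 difference of -1.51 (limma adjusted p = 0.0576). Msn, for moesin, lay between 29.1 and 43.6 FPKM in all 8 libraries and had a log2 difference of 0.31 (limma adjusted p = 0.515). Clec1b, the platelet receptor for podoplanin, was at 0.70 FPKM in WT library 2 and at 0 in the other libraries. The median difference over the tested partners was -0.77 for GoF over LoF.

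Phex separated LoF from the other groups. PHEX is a zinc endopeptidase, and its loss in X-linked hypophosphatemia raises FGF23 and leaves bone undermineralised. The gene (ENSMUSG00000057457.11) spans 157162075 to 157415312 on the minus strand of the X chromosome. Its FPKM was 2.81, 3.18, 5.93 and 4.97 in LoF libraries 1 to 4, 98.9 and 23.6 in GoF, and 16.6 and 35.5 in WT. All 4 LoF libraries were below all others, and the GoF libraries, which differed 4.19-fold from each other, overlapped with WT: GoF library 2 lay between the WT values.

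GoF was 14.5-fold higher than LoF in Phex, a log2 difference of 3.29 (SE 0.57, limma adjusted p = 0.00533). That call was lost in 3 of 17 other settings. These were a replicate block (limma adjusted p = 0.0578), leaving out LoF libraries 2 and 3 together (0.0562), and leaving out GoF replicate 1 (log2 difference 2.28). Against WT the GoF difference was 0.97 (95% interval -0.50 to 2.44, limma adjusted p = 0.584) and became -0.04 without GoF replicate 1. LoF was lower than WT by a log2 difference of -2.32 (95% interval -3.59 to -1.05), which did not pass (limma adjusted p = 0.0942, unadjusted p = 0.00225). The lowest WT library was 2.79-fold above the highest LoF library. Of all tested genes, 9.88% had every LoF library below both WT libraries. Phex is X-linked. Within LoF the libraries with Xist were at 2.81 and 4.97 FPKM and those with Y-linked transcripts at 3.18 and 5.93, and the part of sex was not tested within a group.

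Fgf23 and Sost, the hormone and the Wnt inhibitor of mature osteocytes, were listed at 0 FPKM in all 8 libraries. Sost (ENSMUSG00000001494.6) spans 101962458 to 101967015 on the minus strand of chromosome 11. Fgf23 (ENSMUSG00000000182.9) spans 127072902 to 127081408 on the plus strand of chromosome 6. They are among 29262 of the 48490 genes, or 60.3%, for which this holds. As read counts are unknown, no upper limit can be set on either gene, and a listed 0 says only that no value was estimated from these cells. Mepe, a SIBLING gene of late osteocytes, was at 1.23 and 0.81 FPKM in WT and at 0 in the 6 mutant libraries. These 3 transcripts were thus at 0 in GoF, where Pdpn, Phex and Ptprz1 each reached at least 23.6 FPKM, and at 0 in LoF too. Sost and Fgf23 were also at 0 in WT, and Mepe was low there. The zeros therefore do not set GoF apart from LoF and say nothing on a stage of maturation.

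**Figure D2:**
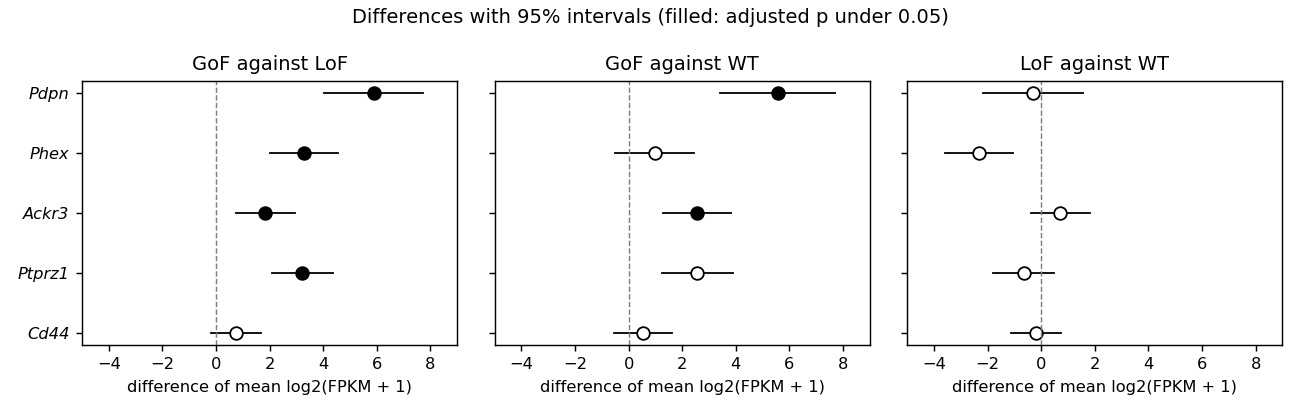
Difference of mean log2(FPKM + 1) for each tested marker (horizontal axis) in GoF over LoF, GoF over WT and LoF over WT, with 95% intervals; filled points had an adjusted p under 0.05. Pdpn, Phex, Ackr3 and Ptprz1 are filled in GoF over LoF, Pdpn and Ackr3 in GoF over WT, and no point is filled in LoF over WT.

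Genes of phosphate handling, the axis of Phex and Fgf23, were called in both directions. Of 17 such genes 13 were tested; in GoF against LoF 4 were called higher and 3 lower, and in GoF against WT 0 higher and 2 lower, where 0.900% of tested genes were called lower. Galnt3, which glycosylates FGF23 and protects it from cleavage, was at 43.7 and 23.5 FPKM in GoF, 0 to 5.21 in LoF and 7.13 and 9.98 in WT. GoF exceeded LoF by 3.72 on the log2 scale (SE 0.66, limma adjusted p = 0.00595). Pcsk5, a proprotein convertase, rose by 2.98 (SE 0.43, limma adjusted p = 0.00206), and the phosphate transporter gene Slc20a2 fell by 1.61 (adjusted p = 0.0456). Neither of these calls was followed over the other settings. Fgfr1, the main FGF23 receptor partner of Klotho, was at 98.6 and 66.4 FPKM in GoF, 13.9 to 23.4 in LoF and 33.6 and 29.2 in WT, with a log2 difference of 2.08 over LoF (SE 0.32, limma adjusted p = 0.00301). Without GoF replicate 1 the adjusted p was 0.146 for Galnt3 and 0.0586 for Fgfr1, and Galnt3 was also lost without GoF replicate 2 (0.0687). Klotho itself (Kl) was at 0 except for 0.207 FPKM in GoF library 2 and 0.31 in WT library 1.

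Fgfr2 and Vdr moved the other way. Fgfr2, a related FGF receptor of osteoprogenitors, was at 0.598 and 1.89 FPKM in GoF, 28.4 to 67.0 in LoF and 24.9 and 27.8 in WT. In the deposited table its interval is 28.4 times as long as the RefSeq gene and takes in sequence beyond it, and whether reads of other transcripts entered these values was not tested. Its log2 difference was -4.46 against LoF (SE 0.42, limma adjusted p = 0.00021) and -3.67 against WT (adjusted p = 0.00445). Vdr, the vitamin D receptor, was at 0.932 and 0.981 FPKM in GoF, 11.3 to 16.9 in LoF and 22.0 and 15.3 in WT. Its log2 difference was -2.85 against LoF (SE 0.37, limma adjusted p = 0.00105) and -3.31 against WT (adjusted p = 0.00414). Against WT, Fgfr2 was lost without GoF replicate 1, WT replicate 1 or WT replicate 2 (adjusted p = 0.0662, 0.0646 and 0.0613) and Vdr without WT replicate 1 (0.0675). With sex as a covariate the adjusted p against WT was 0.104 for Fgfr2 and 0.115 for Vdr. Fam20c, the kinase that phosphorylates FGF23, and Enpp1, which makes pyrophosphate, had GoF over LoF differences of -0.22 and -0.52 (limma adjusted p = 0.843 and 0.572).

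Sclerostin's receptors and regulators included 3 genes that rose with GoF over LoF, of 12 listed and 11 tested, and 0 that fell. The other 8 did not pass, and 5.97% of all tested genes were called higher. The median difference of the 11 was -0.17, the same as over all tested genes. Mef2c, which acts on the distal Sost enhancer, was at 215 and 149 FPKM in GoF, at most 70.6 in LoF and 111 and 95.5 in WT. Its log2 difference over LoF was 2.31 (SE 0.47, limma adjusted p = 0.0113), and 0.199 and 0.0961 were the adjusted p without GoF replicate 1 and GoF replicate 2. Mef2a rose by 1.77 (SE 0.34, limma adjusted p = 0.00878) and Sp7, the osteoblast factor osterix, by 1.74 (adjusted p = 0.0112). Without GoF replicate 1 neither passed (0.104 and 0.0962), nor did Sp7 without GoF replicate 2 (0.102). Lrp4, the receptor that anchors sclerostin, lay between 4.38 and 7.68 FPKM in all libraries, with a difference of -0.15 (limma adjusted p = 0.854). Sirt1, which represses Sost, had a difference of -1.26 (limma adjusted p = 0.246). In the deposited table the Sirt1 interval is 3.13 times as long as the RefSeq gene, so its values may hold other transcripts. None of the 11 was called in either comparison with WT.

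Ackr3 had the lowest mean level in GoF of the 4 markers called against LoF. The gene (ENSMUSG00000044337.5) spans 90203980 to 90216751 on the plus strand of chromosome 1, and its product takes up CXCL12 without coupling to G proteins. Its FPKM was 19.7 and 11.5 in GoF, 2.31, 4.43, 3.40 and 4.13 in LoF, and 0.824 and 3.08 in WT. Both GoF libraries were above all others, by 2.61-fold over the highest LoF library and 3.74-fold over the highest WT library. GoF was 4.38-fold higher than LoF, a log2 difference of 1.84 (SE 0.49, limma adjusted p = 0.0382), and 8.00-fold higher than WT, a difference of 2.56 (SE 0.57, limma adjusted p = 0.0486). LoF and WT overlapped (0.72, 95% interval -0.38 to 1.81, limma adjusted p = 0.587).

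Both Ackr3 calls lie near the threshold. The call against LoF was lost in 11 of 17 other settings and the call against WT in 14 of 17. With sex as a covariate the adjusted p was 0.118 against LoF and 0.35 against WT. Leaving out GoF replicate 1 gave adjusted p values of 0.311 and 0.331, and leaving out GoF replicate 2 gave 0.115 and 0.14. Without LoF replicates 1, 2, 3 and 4 in turn they were 0.0694, 0.058, 0.0544 and 0.0569 against LoF, and 0.0559, 0.0702, 0.0532 and 0.0729 against WT. Without WT replicate 1 and WT replicate 2 the value against WT was 0.295 and 0.0895. The log2 difference against LoF stayed between 1.48 and 2.21 over all 17 settings.

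The chemokine that ACKR3 binds went in the opposite direction. Cxcl12, which retains haematopoietic cells in marrow, was at 553, 1572, 482 and 806 FPKM in LoF, 236 and 49.1 in WT, and 0.674 and 0 in GoF. The groups did not overlap, with LoF highest and GoF lowest. GoF was lower than LoF by a log2 difference of -9.20 (SE 0.62, limma adjusted p = 5.81e-05), and the call held in all 17 other settings. Against WT the difference was -6.40 (SE 0.72, limma adjusted p = 0.00268), a call lost in 4 of 17 other settings. These were only the groups compared (limma adjusted p = 0.109), a replicate block (0.0599) and sex as a covariate (0.0773). The other was leaving out GoF replicate 2, with a log2 difference of -6.02. LoF over WT was 2.81 (limma adjusted p = 0.0671). Of the signalling receptors, Cxcr4 was at 0.351 and 0.324 FPKM in LoF libraries 1 and 2 and at 0 elsewhere, and Cxcr3 and the other ligand Cxcl11 were listed at 0 throughout. Of 10 genes of this axis 7 were tested. The only other call was Ramp2, a receptor activity-modifying protein, which fell by 3.21 in GoF against LoF (limma adjusted p = 0.0161). That call was lost in 3 of 17 other settings: without LoF libraries 2 and 3 (0.0658), without GoF replicate 1 and without GoF replicate 2. In the deposited table the Ramp2 interval is 7.05 times as long as the RefSeq gene, so its values may hold other transcripts.

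Ptprz1 was higher in GoF than in LoF in every library. It encodes a receptor tyrosine phosphatase that pleiotrophin, its ligand, inactivates on binding. The gene (ENSMUSG00000068748.7) spans 22875502 to 23052916 on the plus strand of chromosome 6. Its FPKM was 64.2 and 37.0 in GoF, 7.18, 6.11, 3.87 and 1.89 in LoF, and 5.22 and 10.3 in WT. The GoF libraries were the highest of the 8, and LoF and WT overlapped. GoF was 10.6-fold higher than LoF, a log2 difference of 3.22 (SE 0.51, limma adjusted p = 0.00329), lost only without GoF replicate 1 (0.0892). Against WT it was 6.52-fold higher, a difference of 2.57 (SE 0.59, 95% interval 1.26 to 3.88), which missed the threshold (limma adjusted p = 0.0542) and passed without LoF replicate 4 (0.041). LoF over WT was -0.65 (95% interval -1.78 to 0.48, limma adjusted p = 0.633).

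**Figure D3:**
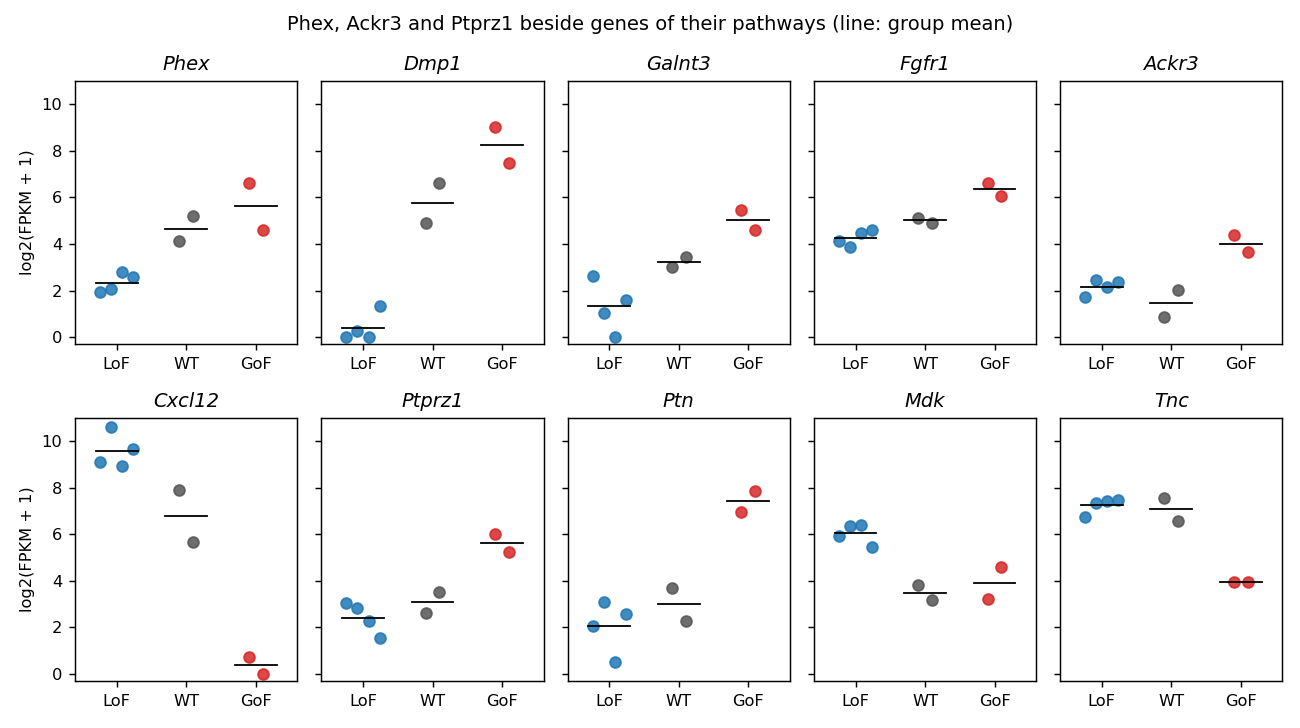
Phex, Ackr3 and Ptprz1 beside genes that act with their products, as log2(FPKM + 1) on the vertical axis for each library of LoF, GoF and WT, with the group mean as a line. In GoF, Ptn (125 and 232 FPKM) is high with Ptprz1, and Cxcl12 (0.674 and 0) is low where Ackr3 is high.

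Ptn, for pleiotrophin, was high in the same libraries as its receptor. It was at 125 and 232 FPKM in GoF, 3.21, 7.41, 0.435 and 4.88 in LoF, and 12.1 and 3.84 in WT. GoF was 44.8-fold above LoF, a log2 difference of 5.36 (SE 0.69, limma adjusted p = 0.00103), and 22.4-fold above WT, a difference of 4.43 (SE 0.80, limma adjusted p = 0.0204). The call against LoF was lost without GoF replicate 2 (0.0536), and the call against WT without GoF replicate 1 (0.156), GoF replicate 2 (0.21), WT replicate 1 (0.0796) or WT replicate 2 (0.16), and with sex as a covariate (0.182). Ptprz1 was higher in GoF library 1 and Ptn in GoF library 2, so their order within GoF differed.

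Midkine (Mdk), the other growth factor of this family, was high in LoF instead. It was at 60.3, 80.8, 84.3 and 42.1 FPKM in LoF, 8.26 and 23.0 in GoF and 13.1 and 7.91 in WT, so GoF and WT overlapped and LoF lay above both. GoF over LoF was -2.14 (SE 0.45, limma adjusted p = 0.0135), lost without GoF replicate 1 (0.197). LoF over WT was 2.55 (limma adjusted p = 0.0295), lost in 14 of 17 other settings with adjusted p up to 0.321 without WT replicate 2. Tnc, for tenascin-C, a matrix ligand of PTPRZ1, was at 14.4 and 14.3 FPKM in GoF, 106 to 174 in LoF and 188 and 94.5 in WT. Its log2 difference was -3.29 against LoF (SE 0.33, limma adjusted p = 0.000268) and -3.13 against WT (adjusted p = 0.00356; 0.0565 without GoF replicate 1, 0.0522 without WT replicate 1 and 0.0833 with sex as a covariate). Sdc3, a pleiotrophin-binding syndecan, rose by 1.88 in GoF against LoF (limma adjusted p = 0.0158; 0.184 and 0.0747 without GoF replicate 1 and GoF replicate 2). In all, 7 of 11 genes of this list were tested, and 2 were called higher and 2 lower in GoF than in LoF. Il34 was at 1.26 FPKM in LoF library 2 and 0 elsewhere, and Alk was listed at 0. Glia are a lineage known for PTPRZ1. The 6 glial markers summed to 4.80 to 6.57 FPKM in LoF, 6.06 and 1.06 in GoF and 2.97 and 0.977 in WT. Most of this was S100b in LoF and in GoF library 1, while Sox10, Erbb3 and Foxd3 were listed at 0 in all 8 libraries.

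Cd44 was present at a moderate level in every library and was called in no comparison. The gene (ENSMUSG00000005087.17) spans 102811141 to 102901665 on the minus strand of chromosome 2. Its FPKM was 12.4, 14.5, 8.37 and 12.3 in LoF, 19.1 and 21.1 in GoF, and 8.36 and 21.7 in WT. Both GoF libraries lay above all LoF libraries, by at least 1.32-fold, and the WT libraries enclosed the GoF values. GoF over LoF was 0.73 (95% interval -0.20 to 1.66, limma adjusted p = 0.319) and GoF over WT was 0.53 (95% interval -0.54 to 1.60, adjusted p = 0.703). LoF over WT was -0.20 (95% interval -1.13 to 0.73, adjusted p = 0.886). The GoF over WT sign turned to -0.11 without WT replicate 1 and the LoF over WT sign to 0.44 without WT replicate 2, so these intervals leave room for either direction.

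With Cd44 included, all 5 tested markers had both GoF libraries above all LoF libraries, where 14.8% of tested genes did. Pdpn, Ackr3 and Ptprz1 (3 of 5) had both GoF libraries above both WT libraries, where 21.8% did. Of 14 ligands, enzymes and other partners around CD44, 12 were tested in GoF against LoF, and 5 were called lower and 0 higher. Spp1, for osteopontin, a CD44 ligand, fell by 2.67 (limma adjusted p = 0.000241), and the gelatinase Mmp9, which docks on CD44, fell by 10.24 (adjusted p = 1.35e-08). Mmp14, which cleaves CD44, fell by 1.50 (limma adjusted p = 0.00443), the hyaluronidase Hyal2 by 1.88 (adjusted p = 0.0383) and the hyaluronan-binding proteoglycan Vcan by 1.56 (adjusted p = 0.0399). The last pair of calls was lost in 13 and 12 of 17 other settings, with adjusted p up to 0.326 and 0.293. Against WT, Mmp9 and Mmp14 were also lower in GoF, with log2 differences of -9.47 and -1.42 (limma adjusted p = 1.26e-07 and 0.0344). The Mmp14 calls were not followed over the other settings. Has2, a hyaluronan synthase, was at 0.278 FPKM in LoF library 4 and 0.29 in WT library 2 and at 0 elsewhere. Osteoclasts and leukocytes also carry CD44. The leukocyte markers (Ptprc, Cd68, Adgre1, Csf1r, Tyrobp, Lyz2, Fcer1g, Itgam) summed to 9.85 to 12.0 FPKM in GoF, 29.2 to 82.4 in LoF and 21.3 to 32.2 in WT, and their part in the Cd44 level was not tested. Itgam had 2 entries, and the sums hold only the first, which was at 0 in all libraries. The osteoclast markers Calcr, Ocstamp and Dcstamp were listed at 0 in all libraries, while Ctsk, for cathepsin K, was at 53.0 to 77.8 FPKM. The 7 osteoclast markers summed to 96.6 to 98.8 FPKM in GoF, 58.9 to 73.0 in LoF and 63.8 to 72.4 in WT, and their part in the Cd44 level was not tested either. Acp5 rose in GoF against LoF (limma adjusted p = 0.0319), a call lost in 10 of 17 other settings with adjusted p up to 0.274.

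The order of the markers by FPKM changed with genotype. In both WT libraries it was Phex, Cd44, Ptprz1, Pdpn and Ackr3, from high to low. Pdpn moved from the fourth place in WT to the top in both GoF libraries, followed by Phex, Ptprz1, Ackr3 and Cd44 in library 1 and by Ptprz1, Phex, Cd44 and Ackr3 in library 2. Cd44 led in LoF libraries 1, 2 and 4, and Pdpn in LoF library 3. Neighbours in this order often lay within the spread of the libraries. Phex (61.3 ± 53.3 FPKM, SD, n = 2) and Ptprz1 (50.6 ± 19.2) overlapped in GoF, and Ackr3 (3.57 ± 0.942 FPKM, SD, n = 4), Phex (4.22 ± 1.48) and Ptprz1 (4.76 ± 2.36) overlapped in LoF.

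Other osteocyte genes were called in both directions in GoF against LoF. Of 12 such genes 9 were tested, of which 4 were called higher, 1 lower and 4 did not pass. Of all tested genes, 5.97% were called higher and 5.68% lower. The median difference of the 9 was 0.18, beside -0.17 over all tested genes. In GoF against WT 0 were called. In LoF 3 were called lower than in WT, where 0.667% of tested genes were. Dmp1, a SIBLING matrix protein of young osteocytes, was at 523 and 177 FPKM in GoF, 29.3 and 97.8 in WT and 0 to 1.54 in LoF. It exceeded LoF by 7.85 in GoF (limma adjusted p = 9.42e-05) and was lower in LoF than in WT by a difference of -5.37 (adjusted p = 0.00657; 0.14 without WT replicate 2, and 0.0681 and 0.0696 without GoF replicate 1 and GoF replicate 2). Tnfrsf11b, for the RANKL decoy osteoprotegerin, and the Wnt antagonist Dkk1 rose in GoF against LoF by 5.46 and 4.53 (limma adjusted p = 0.000202 and 0.000589). Both were also called lower in LoF than in WT, by -3.03 and -2.99 (adjusted p = 0.0259 and 0.0295), calls that were lost in 11 and 12 of 17 other settings, with adjusted p up to 0.273 and 0.319 without WT replicate 2. Irx5, a homeobox factor, rose by 2.77 (limma adjusted p = 0.0127). That call was lost in 3 of 17 other settings: with sex as a covariate (0.0600), without GoF replicate 1 and without GoF replicate 2. In the deposited table the Irx5 interval is 5.1 times as long as the RefSeq gene, so its values may hold other transcripts. Dstn, the actin-severing destrin, fell by 1.20 (limma adjusted p = 0.0146) and was not followed over the other settings.

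The genes nearest to each marker in profile were found over the 8 libraries as those with the smallest root mean square difference of log2(FPKM + 1), each gene centred on its own mean. This is a description over libraries that share their groups. For Pdpn these were Fam84a (0.70), Cck, for cholecystokinin (0.99), and Egfem1 (0.99). Cck and Egfem1 were above 0 only in GoF, at 56.6 and 41.6 FPKM and at 52.7 and 60.4 FPKM. For Phex they were Pacsin1 (0.45), Serpinf1 (0.58), which encodes the bone matrix protein PEDF, and the homeobox gene Dlx3 (0.58). Serpinf1 was at 1264 and 922 FPKM in GoF, 291 and 569 in WT and 95.1 to 137 in LoF. Ackr3 was nearest to Fetub, Otulin and Mum1l1 (0.31 each), Ptprz1 to Rom1 (0.36) and Coro6 (0.44), and Cd44 to Lsm12 (0.19), Fabp3 (0.23) and Atp6v1a (0.23).

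**Figure D4:**
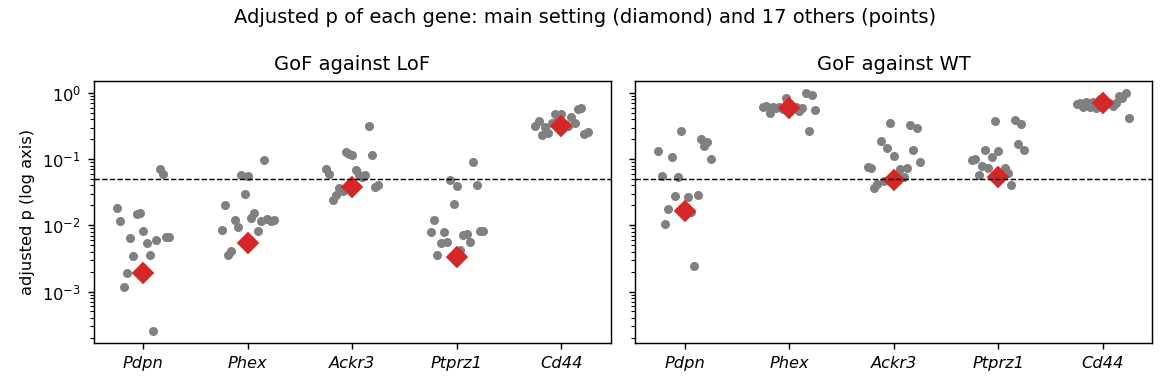
Benjamini-Hochberg adjusted p of each tested marker (vertical log axis) in GoF against LoF and GoF against WT, with the setting reported in the text as a diamond and 17 other settings as points; the dashed line is 0.05. In GoF against LoF nearly all points of Pdpn, Phex and Ptprz1 lie below the line, while Ackr3 crosses it in 11 of 17, and in GoF against WT Pdpn crosses it in 9 and Ackr3 in 14 of 17.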

How the data were processed

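RNA from 70 picked cells per library was amplified with Smart-seq2, per the labels' protocols. Expression was deposited by the authors as FPKM for each gene in each library. The submitters' processing notes list the build mm10 and the tools Cufflinks, HISAT2, HTSeq and SAMtools 0.1.18, without their roles. The annotation release is not given in the sources used here. The table's intervals of Fgfr2, Ramp2, Irx5 and Sirt1 are over 3 times as long as the RefSeq genes, so their values may hold other transcripts. Smart-seq2 marks no strand, so overlapping antisense transcripts cannot be told apart.

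Of 48555 lines 65 repeated a gene ID with identical values and were dropped. Starts, which count from 0 in the table, were made 1-based. Values were used as log2(FPKM + 1) without further scaling, with a pseudocount of 1. Genes with FPKM of at least 1 in at least 2 libraries were fitted with limma 3.58.1 in R 4.3.3 (all 3 groups, mean-variance trend), and p-values were adjusted over 12888 genes by Benjamini-Hochberg. The fit had 10.1 degrees of freedom in all, 5.1 of them from the prior. An exact permutation test could not go below p = 0.133 with 2 against 4 libraries or 0.333 with 2 against 2. Relative depth was the modal ratio of low genes (mean FPKM below 2) between a pair of libraries. Between GoF and LoF the median of all tested genes was -0.17, and -0.05 after median ratio scaling, so differences are to be read against that shift. Tables were handled in Python 3.11.15.

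The members and lists were chosen with earlier results of these data known. Named genes are all members, Ctnnb1, up to 4 called genes a list by size of change, genes acting directly on a member, and for each member the 3 genes nearest in profile, leaving out unnamed and ribosomal protein genes; 1 of these is not reported here. Pcsk5, Slc20a2, Dstn, Mmp14, Acp5 and the chromosomal neighbours were named after their values were seen. Of these, only Acp5 was followed over the other settings. Cell type lists covered osteoblasts, hypertrophic chondrocytes, adipocytes, osteoclasts, leukocytes, endothelium, glia, pericytes and erythroid cells. Alternatives were another pseudocount (0.1), no filter, median ratio scaling, quantile normalization, no trend, only the groups compared, a replicate block, sex as a covariate, and leaving out libraries. Where the text names settings in which a gene lost its call without a count, other settings may have lost it too.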

Additional observations from a re-analysis of the deposited data

Results flagged for a closer look

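Pdpn in LoF was 11.4 FPKM in library 3, against 1.39, 0 and 0.708 in the other 3 LoF libraries. The gap to the nearest library was 0.878 of the group's range, above Dixon's 95% critical value for 4 libraries. Of 5 markers checked in LoF this was the only one flagged, and chance flags about 1 in 20 groups. The endothelial marker sum was 57.0 FPKM and the leukocyte marker sum 82.4 FPKM in the same library, each the highest of the series. Their part in the Pdpn value was not tested.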

How the results depend on the processing

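In the fit reported, 4, 2 and 0 markers were called in GoF against LoF, GoF against WT and LoF against WT. Median ratio scaling, quantile normalization and no mean-variance trend left these counts at 4, 2 and 0, and LoF against WT gave 0 in all 17 other settings. Sex as a covariate, testing every gene and a pseudocount of 0.1 each gave 3 and 0 in the GoF comparisons. Fitting only the groups compared gave 4 and 0, and leaving out LoF libraries 2 and 3 gave 2 and 1. Leaving out 1 library at a time gave 0 to 4 in GoF against LoF and 0 to 2 in GoF against WT. The count against LoF was 0 without GoF replicate 1 and 2 without GoF replicate 2, and the count against WT was 0 without any of the GoF or WT replicates. With the replicate number as a block, 2, 0 and 0 markers were called. In GoF against LoF, Phex and Ackr3 were lost (limma adjusted p = 0.0578 and 0.129). Deviations of same-numbered libraries from their group means had correlations of -0.007 to 0.03. In a group of 2 libraries these deviations mirror each other, so the correlations cannot settle whether the numbers pair the libraries. Over all tested genes, median ratio scaling moved the calls in GoF against LoF from 769 higher and 732 lower to 984 and 659. The causes of these changes were not tested. Read counts are unknown, so limits from depth could not be computed.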

Other observations

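Genes next to the markers on the chromosome were looked at after the values were seen. Lrrc38, which lies 50193 bases from Pdpn, was at 0.314 and 0.246 FPKM in GoF and at 0 in the other 6 libraries, while Prdm2 on the other side lay between 0.713 and 2.55 FPKM in all 8. Fam3c, a secreted factor gene 519259 bases from Ptprz1, was at 37.5 and 42.1 FPKM in GoF, 8.99 to 14.8 in LoF and 21.1 and 30.2 in WT. Its log2 difference in GoF over LoF was 1.78 (SE 0.33, limma adjusted p = 0.00742). Dusp3, a phosphatase gene 4128 bases from Sost, was at 7.52 and 6.59 FPKM in GoF and 2.56 to 3.64 in the other libraries, and its difference of 0.99 over LoF did not pass (limma adjusted p = 0.168). Tigar, 3708 bases from Fgf23, was at 2.02 and 3.00 FPKM in WT and at most 0.637 in the mutant libraries (GoF over WT -1.70, limma adjusted p = 0.0919).

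The remaining marker lists gave these values. Hypertrophic chondrocyte markers had 3 genes called higher (Ibsp, Panx3 and Ihh) and 1 lower (Mmp13) of 6 in GoF against LoF. Col10a1 itself was called in no comparison. It was at 190 and 177 FPKM in GoF, 9.61 to 114 in LoF and 6.24 and 20.5 in WT. Of 5 tested adipocyte markers 3 were lower in GoF than in LoF. Pericyte and smooth muscle markers summed to 3.56 to 4.09 FPKM in GoF, 35.9 to 62.1 in LoF and 21.4 to 33.8 in WT. Erythroid markers summed to 76.0 to 2273 FPKM in LoF, 895 to 1838 in GoF and 2557 to 10567 in WT.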
